A study of Mus musculus with 12 samples.

Results

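The unmodified genomic sequences tested upstream of a rhodopsin promoter were 1270 of the 14987 elements in a CRE-seq experiment, a massively parallel reporter assay. An element was counted as unmodified when it was its region's unaltered version, 1 for each region. Of these, 1253 carried that label in their names and 17 had been named as spacer variants although their sequence was unaltered. Each element of 100 bp was read out through 6 barcodes (423 elements) or 7 barcodes (847 elements) in the transcript of a fluorescent reporter. Retinas of newborn CD1 mice (postnatal day 0) were electroporated with 30 micrograms of the plasmid library, together with a CAG-GFP plasmid, and were kept in culture for 8 days. The same retinas gave cDNA and DNA libraries, and each of the 3 replicates was a pool of 5 retinas. A second library with the same elements on a Crx promoter (pCrx) was used here only for comparison with the rhodopsin promoter (pRho).

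Rhodopsin is the visual pigment of rods, and its promoter is switched on as rods mature. The photoreceptor factor CRX, a homeodomain protein, binds sites with a TAAT core, best in the form TAATCC, which is called a K50 site after an amino acid of the homeodomain. It acts together with NRL, a leucine zipper factor of rods, and NR2E3, a nuclear receptor that represses cone genes in rods. E-boxes bound by NEUROD1 and sites bound by MEF2 factors are further elements of photoreceptor enhancers. In an electroporated explant the plasmid can enter several cell types, and the readout is that of the whole electroporated retina.

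The following stretches of 30 bases come from the 8 of the 20 most and least active elements in which 1 changed base moved activity most. Only falls were considered in the most active elements and only rises in the least active, so the choice fixes the opposite directions. The cores also differ: those of the most active elements and the first of the least active are part of TAATCC, and the others are not. They are given 5′ to 3′ as deposited, with positions in mm9 that take the region names as counted from 1, which was not checked against a genome. In 9 of 9 elements that could be matched to a RefSeq promoter, the deposited sequence was that of the plus strand. Capitals mark the 4 bases TAAT, or ATTA on the other strand, that hold the changed base. In the last line no such core holds the changed base, and the base alone is capital. The first 3 come from the 10 most active elements and the others from the 10 least active.
chr4:139687725-139687754: caagaaagtgggcTAATccaatattaccaa
chr15:103164847-103164876: gcgggggagcagggATTAggggaatctgag
chr8:108928791-108928820: ggattatacccctTAATcctagaaccccaa
chr4:53646738-53646767: ccaatacaaagaggATTAagagttgtgagt
chr4:144598548-144598577: gagagattaagggcATTAacagggtgattg
chr12:75010341-75010370: ttctggaagagatTAATtccccttatccat
chr9:45613234-45613263: gatgccattgggcTAATtaaaactttcagg
chr16:90132870-90132899: ccacgtgtaagtggaTtgcaaaataagata

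Activity is the log2 ratio of cDNA to DNA counts, scaled so that 0 stands near the typical element; an empty promoter was not used as the zero. In the element with the lowest activity by summed reads, chr9:45613185-45613284, DNA reads were 1601, 1564 and 1314 in the 3 replicates and cDNA reads 53, 80 and 72. Its log2 activity was -4.56, -3.73 and -3.86, or -4.03 ± 0.15 by the fit (SE; edgeR adjusted p = 1.4e-18), 16.4-fold below the typical element. With barcodes as units chr9:107580753-107580852 was lower, at -4.35 against -4.07. The 7 barcodes of chr9:45613185-45613284 ran from -6.43 to -0.16, with the second highest at -3.31. With barcodes as units its SE was 0.61 (limma adjusted p = 0.0002), and without its highest barcode it lay at -4.49. In the most active element, chr14:52727841-52727940, DNA reads were 2947, 2492 and 2826 and cDNA reads 10545, 9446 and 10674. Its log2 activity was 2.18, 2.47 and 2.23, or 2.29 ± 0.07 (SE; edgeR adjusted p = 1.1e-19). DNA reads were of the same order in both elements, and every cDNA count of the second was above every cDNA count of the first.

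The distribution was not symmetric: it reached further below the typical element than above it. Of the 1270 elements, 277 (21.8%) had log2 activity above 1 and 270 (21.3%) below -1, but only 7 lay above 2 against 74 below -2. The 5th, 25th, 50th, 75th and 95th percentiles were -2.11, -0.82, 0.10, 0.92 and 1.56. By edgeR's quasi-likelihood test (adjusted p under 0.05), 615 elements (48.4%) were higher in cDNA and 523 (41.2%) lower, while 132 did not pass. With total-count scaling these counts were 524 and 609, so which direction held the majority depended on the scaling. Over all 14987 elements the shares were 43.2% higher and 45.7% lower. When a change of at least 1.5-fold was required, 402 unmodified elements were higher and 348 lower, against 26.7% and 29.7% of all elements. The median unmodified element exceeded the median modified one by 0.14, 0.16 and 0.15 in the 3 replicates. That is the same direction in 3 of 3, for which an exact two-sided sign permutation gives p = 0.25, the smallest that 3 replicates allow. The 2 medians are not over matched regions. A region scanned base by base gives many modified elements but only 1 unmodified element. Unmodified medians were 0.37 and 0.41 in the 2 sets of 100 scanned regions and 0.05 in the other 1070. The part of region composition in the difference was not tested. Unmodified elements took 8.55% to 8.59% of DNA reads and 9.61% to 9.72% of cDNA reads, while they were 8.47% of the elements.

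Replicates were close. The median range over the 3 replicates was 0.21 and its 95th percentile 0.48, against a median SE of 0.08. Of the 1138 elements that passed, 1134 had the same sign in every replicate. The widest range belonged to chr7:53078777-53078876, at -2.37, -1.36 and -2.73. Next came chr8:108928745-108928844, one of the 10 most active, at 1.86, 1.54 and 2.53, and chr11:98791119-98791218 at 0.36, 1.24 and 0.39. These 3 elements had few DNA reads, at 103 to 244, 354 to 591 and 427 to 779. Median DNA reads of unmodified elements were 1984 to 2251.5 per library. Only 2 barcodes of chr7:53078777-53078876 had at least 10 DNA reads in every replicate. Barcodes of 1 element varied more at low activity. With elements split by activity into 5 groups of about equal size, from lowest to highest, the median SD over barcodes was 0.68, 0.39, 0.30, 0.28 and 0.27. In chr19:36871634-36871733 the SD over barcodes was 2.72. The sum of its reads gave 1.47, 1.56 and 1.65, but 1 barcode lay at -4.88, and with barcodes as units its activity was 0.64 with adjusted p = 0.51 (limma).

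The 10 most active elements lay between 1.95 and 2.29, or 3.87-fold to 4.90-fold above the typical element, and the 10 least active between -4.03 and -2.90, or 7.48-fold to 16.4-fold below it. Without the highest barcode of each element, chr9:107580753-107580852 moved from -3.01 to -4.49 and chr16:90132819-90132918 from -2.93 to -3.68. Outside both sets, chr10:107845176-107845275 moved further, from -1.64 to -4.52, and lay at -3.95 with barcodes as units. Membership of the lower set thus depends on how barcodes are combined. The element just outside each set lay at 1.93 and -2.89. Every replicate of the upper set was above every replicate of the lower set, as the choice of the sets fixes. Barcode SD ran from 0.20 to 0.56 in the upper set and from 0.75 to 2.03 in the lower. All 20 also passed with barcodes as units (limma). The core TAAT was in all 20, and TAATCC was in 7 of the 10 most active and 6 of the 10 least active. The word CCCTC was in 6 and 0 of them, AGGTCA in 3 and 0, the NEUROD-type E-box in 2 and 0, and TGCTGA, the half-site of NRL, in 0 and 3. Over all unmodified elements the shares with these words were 29.8%, 10.2%, 11.3% and 12.5%. In sets of 10, such counts are too small to separate the sets by word, and they were given no test. The words are a selection: others searched, GGGAGG among them, are not listed for these sets. GC content overlapped, at 38% to 66% and 39% to 50%.

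Single bases in the cores shown above separated some of these elements from their changed versions. A change is written as the unmodified base, its position from the first base of the element and the new base. In chr4:139687655-139687754 the unmodified activity was 1.76, 2.31 and 2.04. With A86C, which alters a TAATCC, it was -0.88, -1.22 and -1.34, and activity fell by 3.17 ± 0.13 on the log2 scale (SE), or 9.02-fold (edgeR adjusted p = 1.7e-27). Changing its other K50 sites as well (T10G, T47G and A86C) changed activity by -3.28, close to A86C alone. Yet T10G and T47G on their own changed it by -0.52 and -0.32, and both passed (edgeR adjusted p = 0.00014 and 0.014). The single changes thus did not add up. In chr8:108928745-108928844 the loss was shared: activity fell by 1.31 with T50G, fell by 1.44 with A62C and fell by 2.43 with both. In chr15:103164816-103164915, activity fell by 1.67 ± 0.15 with T47C, from 2.09, 1.82 and 2.45 to 0.51, 0.56 and 0.21.

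Changes in the least active elements went the other way in most cases. In chr16:90132819-90132918 the activity was -2.84, -3.16 and -2.75 unmodified and -0.75, -0.68 and -0.53 with T67G, a rise of 2.28 ± 0.25 or 4.84-fold (edgeR adjusted p = 1.5e-11). A48C and A61C in the same element rose by 2.17 and 2.15, and A61C with T67G together by 1.69, so the single changes did not add up. In chr4:53646714-53646813, T40C gave a rise of 2.22 ± 0.13, from -3.01, -2.87 and -3.03 to -0.70, -0.82 and -0.73. Rises of 1.63 with T40G in chr4:144598524-144598623, 1.36 with A50C in chr12:75010307-75010406 and 1.33 with A65G in chr9:45613185-45613284 also passed. None of these changed versions reached the typical element. In chr4:144598524-144598623 activity with T40G and A34C together rose by 0.45, although A34C alone differed by 0.09 and did not pass (edgeR adjusted p = 0.69). In chr4:53789056-53789155 the unmodified activity was -3.18 by summed reads but -3.73 without its highest barcode. Against the summed reads, activity fell by 1.12 with T88G and fell by 0.91 with A71C. With both changes it differed by 0.11, and with A82C and T88G by 0.06, and neither passed (edgeR adjusted p = 0.56 and 0.78). In chr12:87894500-87894599 activity fell by 0.76 with A75G.

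Counted over all tested changes, the 10 most active elements had 75, of which 42 fell and 0 rose, with at least 1 fall in each element. The 10 least active had 85, of which 52 rose and 6 fell, with rises in 7 elements and falls in 3. Over all 13717 changes in the experiment, 43.7% were lower and 16.3% higher than their unmodified element. Since these elements were chosen as extremes and enter each of their differences, the directions of these counts are partly fixed by the choice and were given no test. Most changes came from 2 elements scanned base by base, chr15:103164816-103164915 with 53 (23 fell) and chr4:53646714-53646813 with 56 (36 rose and 3 fell). Without such scans 19 of 22 changes fell in the upper set, and 16 of 29 rose and 3 fell in the lower.

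Medians differed with some of the 24 words and sites searched, in both directions. The 143 elements with a NEUROD-type E-box (CAGATG or CATATG on either strand) had a median of 0.73 against 0.03 for the others, and 69.9% against 45.7% were higher. The difference was 0.69 to 0.72 in the single replicates. For the 32 elements with a MEF2 site the medians were 0.86 and 0.08, and 24 of 32 were higher. AGGTCA, a half-site of nuclear receptors, had medians of 0.56 in 129 elements and 0.06 in the rest, and TGCTGA 0.35 in 159 and 0.06. These 4 words were in 11.3%, 2.52%, 10.2% and 12.5% of the unmodified elements, and in 7.31%, 1.11%, 5.79% and 6.84% of RefSeq promoter windows of 100 bases. Counting how many of these 4 kinds an element held, the median was -0.05 with none (870 elements), 0.38 with 1 (340), 0.93 with 2 (57) and 1.48 with 3 (3 elements). The shares higher were 42.5%, 57.9%, 78.9% and 100%. Other words with higher medians were GGGAGG, at 0.50 in 207 elements, GGGCGG, at 0.47 in 31, and CCCTC, at 0.36 in 379, so a difference as large as that of TGCTGA was not particular to these 4 kinds. These are descriptions of lists chosen with results known, beside a share of 43.2% over all elements, and no test was made.

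The named element that held the most of these 4 kinds, chr2:127082583-127082682 with 3, had log2 activity of 1.94, 1.66 and 1.89, or 1.83 ± 0.06. Its MEF2 site is in capitals in the first line below. The E-box of the most active element, read on the other strand, and its AGGTCA, also on the other strand, are in the lines after it.
chr2:127082618-127082647: tggtgagaggTTATAATTAGctccttaagc
chr14:52727891-52727920: taagccagtcacCATCTGttctggctctga
chr14:52727842-52727871: tcatcccagcaaTGACCTaaattcagcttc

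These words did not set the level alone. With an E-box, chr10:18816381-18816480 lay at -2.57, -2.73 and -2.49. With a MEF2 site and 2 E-boxes, chr14:56140142-56140241 lay at -1.95, -2.40 and -2.34, and with AGGTCA, chr15:66793972-66794071 at -2.63, -2.64 and -2.78. All replicates of these elements were below the 25th percentile of the unmodified elements. Words with lower medians were GGAATG, known from TEAD factors, at -0.55 in 46 elements, AAGTCA, a half-site of the NR2E3 type, at -0.41 in 53, TGTGGT, known from RUNX factors, at -0.31 in 57, and the ONECUT site, at -0.32 in 22. The share lower was 58.7%, 56.6%, 52.6% and 54.5%, against 45.7% over all elements. Within terciles of GC content the difference for the ONECUT site went from -0.43 to -0.04. The 4 were in 3.62%, 4.17%, 4.49% and 1.73% of the unmodified elements and in 5.43%, 5.34%, 5.70% and 2.79% of the promoter windows.

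TAATCC itself, in 809 elements (63.7%, against 2.52% of 32432 RefSeq promoter windows of the same length), had a median of 0.16 against 0.02 without it. The median was 0.02 with none, 0.19 with 1, 0.11 with 2 and -0.97 with 3 or more sites, the last from 13 elements. For any TAAT core the medians were 0.15, 0.09, 0.18, 0.12, -0.14, -0.55 and -1.07 with 0, 1, 2, 3, 4, 5 and at least 6 cores, and the last groups held 36 and 16 elements. Elements with more cores were poorer in G and C (r = -0.41 across 1270 elements), and GC content moved with activity as well. With elements split by GC content into 5 groups, from lowest to highest, the medians were -0.12, -0.10, -0.09, 0.30 and 0.42. Across elements r was 0.19 and rho 0.17, which is weak. The part of GC content in the counts by core was not tested. Within terciles of GC content the differences with and without a word were 0.73 for the E-box, 0.92 for MEF2, 0.61 for AGGTCA and 0.18 for TGCTGA.

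On pCrx the same elements kept their side of the typical element but not their level. All 10 most active elements were above 0 on pCrx (1.20 to 2.77), and all 10 least active were below 0 (-2.95 to -0.64). The difference between promoters passed for 6 of the upper set, 4 higher on pCrx and 2 higher on pRho, and for 7 of the lower set, all higher on pCrx (edgeR interaction, adjusted p under 0.05). Over all elements 68.4% passed in either direction, so 13 of 20 is near the background. The share by direction over all elements was not counted, so the splits by direction have no background beside them. The choice by pRho values makes values on pCrx closer to 0 more likely. The widest differences were those of chr12:75010307-75010406, at -2.97 on pRho and -0.64 on pCrx, and chr2:28077042-28077141, at -3.05 and -0.81.

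Exact matches to RefSeq promoter windows (250 bases before to 50 after a gene's start, GRCm38.p6) placed 9 elements beside a gene. Of these only Dlg4 was on a gene list of this report; the others were named after their values were seen. Dlg4 encodes PSD-95, a scaffold protein of synapses. Its element, from 63 bases before to 36 after the start, had 259 to 372 DNA reads and log2 activity of -1.31, -1.83 and -2.04. It had 50 to 86 cDNA reads, and only 3 of its barcodes had at least 10 DNA reads in every replicate. The element at Zfp385a, a zinc finger gene, ranked 3 among the most active, at 2.10. Like the element at Dlg4, it has no value in the authors' deposited table. The element at Casz1, a zinc finger factor of retinal development, lay at 1.54, 1.41 and 1.74. The element at Ppef2, a phosphatase of photoreceptors, lay at -0.44, -0.39 and -0.24 on pRho but at 1.29 on pCrx. Its difference of 1.66 ± 0.12 (SE) passed the edgeR interaction test with adjusted p = 2.7e-12. The elements at Gm48552 and Gm2233 were at 1.63 and 1.35, and those at Gm19497, Pitpnm2os2 and Msantd4 at -0.28, -0.30 and -0.23.

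Unmodified elements near each other often differed. There were 19 pairs with starts under 1000 bp apart, and their median absolute difference was 1.00. The median SE of an element was 0.08, and the SD over all unmodified elements was 1.12. In 9 pairs 1 element was higher and its neighbour lower, in 3 both were higher and in 5 both lower. Of all unmodified elements 48.4% were higher and 41.2% lower, so opposite pairs are frequent at any distance. Pairs further apart were not compared, so these values show nothing particular to neighbours. Across the 19 pairs r was -0.07. The widest difference was between chr17:73287114-73287213 at -1.82 and chr17:73287587-73287686 at 1.69, 473 bp apart. The only overlapping pair, chr13:44795836-44795935 and chr13:44795891-44795990, shared 45 bases and lay at -1.72 and -0.73.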

How the data were processed

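The authors deposited raw read counts per barcode, which were added up for each element. The tool that assigned reads to barcodes was not given in the sources used here, and positions are in mm9, per the submitters' processing notes. The authors' deposited table of log2 expression was used only for comparison: it holds 1230 of the 1270 elements and correlated with activity at r = 0.999. The filter behind the 40 others was not stated, and the table's replicates, once sorted, differ by at most 0.00075, as after quantile normalization. Library totals were 31408642 to 35737181 DNA and 27614797 to 31842705 cDNA reads on pRho. Barcodes were amplified by 21 and then 6 PCR cycles with no molecular identifiers named, so reads are not independent molecules and p-values rest on the spread between the 3 pools.

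A minimum of 10 counts in every DNA library was met by all 14987 elements. cDNA was compared with DNA by the quasi-likelihood test of edgeR 4.0.16 (R 4.3.3) after TMM scaling, with Benjamini-Hochberg adjustment over all elements. The fit was also run on simulated counts. Few elements were changed there, by balanced folds, while most real elements passed, so the simulation cannot test the scaling. Differences between promoters and between a changed and an unmodified element were interaction terms. Values per replicate used a pseudocount of 0.5. DESeq2 1.42.0 and limma 3.58.1 gave alternatives, with at least 3 barcodes per element for limma.

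DNA and cDNA libraries of 1 number come from the same pool of retinas per the labels' protocols. The deviations of same-numbered libraries from their group means correlated at 0.026, 0.010 and 0.050. The main fit had no replicate block.

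Members and lists were chosen with earlier results of these data known. Named elements were the 10 highest and 10 lowest with the same sign in all replicates, the extremes that hold each of 24 motifs (at most 12), promoter matches, and the 3 with the widest range over replicates and over barcodes. Motifs were searched on both strands with overlap allowed. Gene lists could be used only through promoter matches, since no genome of the build was used here.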

Additional observations from a re-analysis of the deposited data

Results flagged for a closer look

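Activity differed between the promoters in 29 of the 45 named elements by edgeR's interaction test, with 24 higher on pCrx and 5 higher on pRho. Over all elements 68.4% passed in either direction. The share by direction over all elements was not counted, so the split of 24 and 5 has no background beside it. Many of the 45 were chosen by high or low values on pRho. All values are log2 activity on pCrx minus pRho. Among the 10 most active on pRho, the difference was 0.49 in chr14:52727841-52727940, -0.79 in chr15:103164816-103164915, 0.39 in chr18:56764919-56765018, 0.64 in chr4:139687655-139687754, -0.76 in chr8:108928745-108928844 and 0.49 in chr4:80552808-80552907. Among the 10 least active it was 1.29 in chr9:45613185-45613284, 1.70 in chr13:36610338-36610437, 2.25 in chr2:28077042-28077141, 0.69 in chr9:107580753-107580852, 1.51 in chr4:144598524-144598623, 2.33 in chr12:75010307-75010406 and 0.68 in chr12:87894500-87894599. These sets were chosen by their values on pRho.

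Among elements named for a motif, 6 of the low ones had higher values on pCrx: 1.83 in chr10:18816381-18816480 (E-box), 1.48 in chr14:56140142-56140241 (MEF2 site), 1.10 in chr15:66793972-66794071 (AGGTCA), 1.32 in chr4:44986495-44986594 (GGGCGG), 1.25 in chr3:61910297-61910396 (CCCTC) and 1.11 in chr18:63367535-63367634 (TAAGCT). The high ones gave 0.34 in chr18:66175259-66175358 (TAATTA) and 0.44 in chr10:120766779-120766878 (ONECUT site). At promoters it was 0.26 in chr4:148263230-148263329 (Casz1), 1.66 in chr5:92685374-92685473 (Ppef2) and -0.35 in chr9:4376423-4376522 (Msantd4). Elements with a wide spread gave 1.81 in chr7:53078777-53078876, -0.74 in chr11:98791119-98791218, -0.26 in chr19:36871634-36871733, 0.95 in chr4:154340495-154340594 and 1.02 in chr10:107845176-107845275. The value of chr7:53078777-53078876 rests on only 27 to 34 cDNA reads per replicate on pRho.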

How the results depend on the processing

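The counts of 615 higher and 523 lower elements stayed within 1.5 times under all alternatives run except the required change of 1.5-fold, which gave 402 and 348. Leaving out 1 replicate gave 594 to 603 higher and 508 to 512 lower, and the replicate block 613 and 526. Total-count scaling shifted the median by -0.20 and gave 524 and 609, so the share higher among those called went from 54.0% to 46.2%. The fold between the 95th and 5th percentile, 12.7, was 14.2 with barcodes as units and 14.2 without the highest barcode of each element, and 12.1 to 12.7 with 1 replicate left out. Leaving out 1 replicate gave 11 to 14 promoter differences among the 20 extreme elements (13 with all), 34 to 56 changes that lowered activity (48) and 47 to 48 that raised it (52). Some differences of medians with and without a motif changed sign. With barcodes as units CACGTG went from -0.11 to 0.018. Within terciles of GC content TAAT went from -0.05 to 0.074 and TAATCT from -0.09 to 0.0020. The dimer of facing cores went from -0.25 to 0.16 and TAAGCT from 0.0091 to -0.067 in the same way. In single replicates TAAGCT ran from -0.028 to 0.071. The cause was not tested. Of the named elements, chr19:36871634-36871733, chr1:135957625-135957724, chr5:124644767-124644866 and chr9:4376423-4376522 did not pass with barcodes as units. With 1 replicate left out, chr5:124644767-124644866 passed in each fit; chr1:135957625-135957724 did not pass without replicate 3, nor chr9:4376423-4376522 without replicate 1 or 2. Low cDNA counts limit the least active elements.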
